A study of Mus musculus with 17 samples.

Results

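The genes described are 10 members of the AP-1 and immediate early gene families, namely Fos, Fosb, Fosl1, Fosl2, Jun, Junb, Jund, Egr1, Ier2 and Dusp1. They were taken by their symbols from the single-cell count tables of differentiating mouse small intestinal organoids, where they are 10 of 26422 genes. Each member had at least 1 unique molecular identifier (UMI, a tag that counts single mRNA molecules) in every one of the 17 libraries, so no member was lost before the levels were computed.

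AP-1 is a dimeric transcription factor in which a FOS family protein pairs with a JUN family protein, or JUN family proteins pair with each other, through a leucine zipper. Several genes of both families, together with Egr1 and Ier2, are immediate early genes. Their transcription begins within minutes of a growth factor, stress or wounding signal without new protein synthesis, and their mRNAs decay quickly. ERK, JNK and p38 kinases drive this response through serum response factor, its ETS-family partners and CREB at the promoters, and DUSP1, itself an immediate early product, switches the kinases off by removing their phosphates. In the intestinal epithelium JUN and FOS proteins act downstream of EGF receptor and Wnt signalling, and the same genes are known to respond to tissue dissociation.

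The organoids came from crypts of C57BL/6 mice and were grown in medium with EGF, Noggin and R-spondin 1 (ENR), which all groups shared. ENR+CV adds CHIR99021 and valproic acid and keeps the organoids rich in stem cells, ENR+CD adds CHIR99021 and DAPT, a Notch pathway inhibitor, and directs them towards Paneth cells, and the treated group had ENR+CD with 160 nM KPT-330, an inhibitor of the nuclear exporter XPO1. There were 2 ENR+CV libraries at day 0, 7 ENR+CD libraries from day 0.25 to day 6 and 8 KPT-330 libraries over the same days. Day 6 had 2 libraries in each of ENR+CD and KPT-330 and day 3 had 2 with KPT-330, and the other days had 1 library per condition. Each library pooled many organoids that were taken apart with an enzyme. Nothing in the labels ties the replicate numbers to animals, cultures or batches, so p-values measure only the spread between these libraries. Untreated is used for the 9 ENR+CV and ENR+CD libraries together.

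Libraries were made by Seq-Well S3, in which single cells and barcoded beads share small wells. Of 26229 barcodes in the tables, the 19877 that the study kept were used, with 531 to 1547 cells, 3458887 to 12433109 UMIs, a median of 2676 to 8463 UMIs per cell and a median mitochondrial share of 6.31% to 18.3% per library. The 10 genes together gave 8015 to 59563 UMIs per library, and 14 barcodes occurred in more than 1 library. Levels are given as UMIs of a gene per 10000 UMIs of the library or cell group, a scale without correction for length, so levels are compared between samples for 1 gene and not between genes. In summed counts, fewer cells of a type and less RNA per cell cannot be told apart.

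The genes lie on chromosome 12 (Fos), 7 (Fosb), 19 (Fosl1), 5 (Fosl2), 4 (Jun), 8 (Junb, Jund and Ier2), 18 (Egr1) and 17 (Dusp1) of the mm10 build. The 250 bases before the RefSeq transcription start were at hand for 7 of the 10 genes, on GRCm38.p6, the assembly behind mm10. Those of Fos, Fosb, Jun, Junb and Dusp1 are shown as genes the results below turn on, with the planned motifs in capitals, and those of Fosl2 and Jund, whose RefSeq starts lie 671 and -1210 bases from the GENCODE start on the genome (RefSeq minus GENCODE), are not. The RefSeq start of Dusp1 differs more, by -53656 bases, because the GENCODE gene on the minus strand begins farther upstream, so its window describes the RefSeq start alone. The motifs searched on both strands were the cAMP response element TGACGTCA, the AP-1 site TGANTCA, the EGR site GCGNGGGCG, the TATA box TATAAA and the CArG box of serum response factor. The windows are chr12:85473640-85473889 on the plus strand for Fos, and on the minus strand chr7:19310046-19310295 for Fosb, chr4:95052223-95052472 for Jun, chr8:84978749-84978998 for Junb and chr17:26508473-26508722 for Dusp1.
Fos: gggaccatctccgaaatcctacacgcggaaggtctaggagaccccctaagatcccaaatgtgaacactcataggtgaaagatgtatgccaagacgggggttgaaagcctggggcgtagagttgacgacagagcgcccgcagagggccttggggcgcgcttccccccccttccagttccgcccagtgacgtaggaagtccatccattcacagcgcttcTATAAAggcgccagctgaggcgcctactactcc
Fosb: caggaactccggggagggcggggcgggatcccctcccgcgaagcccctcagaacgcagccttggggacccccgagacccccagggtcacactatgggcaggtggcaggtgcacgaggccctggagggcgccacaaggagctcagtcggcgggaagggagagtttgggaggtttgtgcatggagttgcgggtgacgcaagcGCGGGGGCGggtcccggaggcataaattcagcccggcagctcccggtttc
Jun: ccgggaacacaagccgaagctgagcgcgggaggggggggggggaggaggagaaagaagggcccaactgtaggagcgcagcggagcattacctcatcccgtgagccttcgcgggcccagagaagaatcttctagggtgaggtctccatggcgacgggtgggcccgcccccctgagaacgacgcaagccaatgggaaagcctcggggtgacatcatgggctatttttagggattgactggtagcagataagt
Junb: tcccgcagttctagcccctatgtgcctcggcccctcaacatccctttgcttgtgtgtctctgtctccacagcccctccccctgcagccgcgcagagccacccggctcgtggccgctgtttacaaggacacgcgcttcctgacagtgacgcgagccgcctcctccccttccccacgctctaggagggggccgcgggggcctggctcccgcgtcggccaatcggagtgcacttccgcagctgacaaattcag
Dusp1: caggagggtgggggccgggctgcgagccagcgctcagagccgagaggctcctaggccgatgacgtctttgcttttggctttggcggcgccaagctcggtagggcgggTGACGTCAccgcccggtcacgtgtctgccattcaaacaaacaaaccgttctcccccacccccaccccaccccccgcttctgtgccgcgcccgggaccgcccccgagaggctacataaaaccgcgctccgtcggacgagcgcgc
Fos held a TATA box from -33 to -28, Fosb an EGR site from -50 to -42 and Dusp1 a full cAMP response element from -143 to -136, counted from the RefSeq start. No planned motif was found in the windows of Jun, Junb and Jund, and Fosl2 held an EGR site from -79 to -71. Among all 32851 windows of this length, 12.4% held the TATA box, 4.70% the EGR site, 1.55% the cAMP response element, 6.75% the AP-1 site and 1.47% the CArG box. The shorter TGACG core, searched after the data were seen and contained in the full element, occurred in 17.8% of all windows and began at -129 and -66 in Fos, -60 in Fosb, -106 in Junb and -191, -143 and -140 in Dusp1. A match describes letters in a window and says nothing of binding.

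All FOS family members had their lowest untreated levels at day 0 or day 1. The level of Fos, the founding FOS gene, was 5.83 and 12.8 UMIs per 10000 in ENR+CV replicates 1 and 2. In ENR+CD it was 5.87 at day 0.25, 5.25 at day 1, 8.01 at day 2, 7.01 at day 3, 11.3 at day 4, and 12.4 and 13.5 in the day 6 replicates. The ENR+CV replicates differed 2.19-fold, so that replicate 2 stood at the level of day 6, while the other untreated libraries up to day 3 stayed between 5.25 and 8.01. Fosb, which shares its zipper and DNA-binding region with Fos, was at 1.05 and 2.61 in ENR+CV, between 1.33 and 1.34 at days 0.25 and 1, and between 3.06 and 4.19 from day 2 on. Its untreated libraries of days 0 to 1 and days 3 to 6 did not overlap. Fosl2, which encodes FRA2, ran from 0.270 to 0.430 in the 4 untreated libraries of days 0 to 1 and from 0.730 to 1.23 in the 4 of days 3 to 6, again without overlap. Fosl1, which encodes FRA1, was sparse, at 0.0201 to 0.180 over the untreated libraries with its highest level in ENR+CD at day 2.

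In the JUN family the ENR+CV replicates lay far apart for Jun and closer together for Junb and Jund. Jun, the main partner of FOS proteins, was at 5.90 and 11.5 in ENR+CV, at 7.65, 5.48 and 9.39 in ENR+CD at days 0.25, 1 and 2, at 8.16 and 12.4 at days 3 and 4 and at 12.1 and 12.7 at day 6. Junb, a JUN protein with weaker transforming activity, was at 1.31 to 2.06 in the 4 untreated libraries of days 0 to 1 and at 2.03 to 2.82 in those of days 3 to 6, which just overlapped. Jund, the JUN gene expressed most steadily in resting cells of many tissues, was at 1.29 to 2.24 and 2.25 to 4.14 in the same libraries, and its groups met without crossing. Egr1, a zinc finger factor switched on by ERK and serum response factor, was at 3.50 and 7.62 in ENR+CV, at 3.31 to 4.63 in ENR+CD up to day 3 and at 8.15 to 8.79 at days 4 and 6. Ier2, a small nuclear protein of the early growth factor response, showed no such order, with 3.28 and 4.69 in ENR+CV and 1.79 to 3.71 in ENR+CD. Dusp1 was at 0.234 and 0.542 in ENR+CV, at 0.331 and 0.232 at days 0.25 and 1, and at 0.654 to 0.882 from day 2 on.

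**Figure D1:**
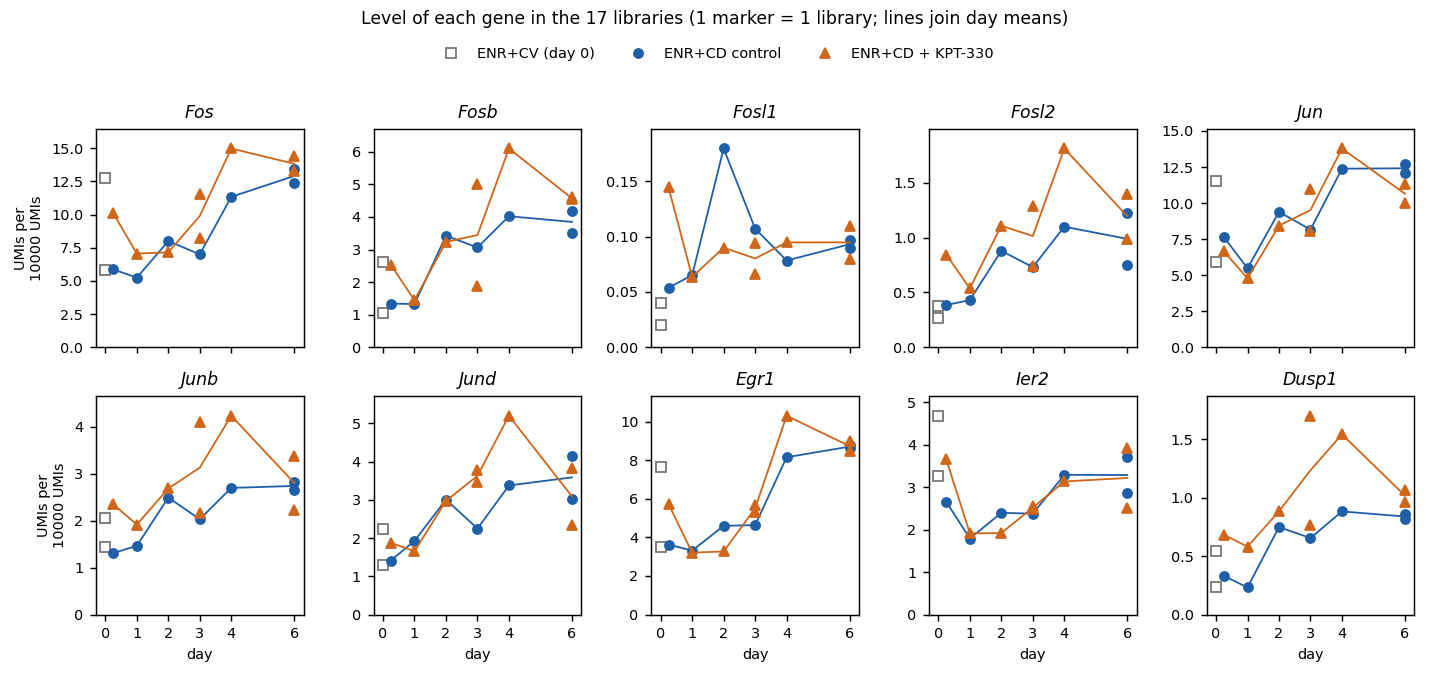
Level of each of the 10 genes (vertical axes, UMIs per 10000 UMIs, each starting at 0) against day (horizontal axis), with 1 point per library and lines through the mean of each day for the ENR+CD and KPT-330 libraries. The KPT-330 means of Dusp1, Fosl2 and Junb lay above those of ENR+CD on every day, while the Jun lines cross. The ENR+CV replicate with Fos at 12.8 stands apart from its partner at 5.83.

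The first comparison asked whether the untreated organoids changed as they differentiated, with the 4 untreated libraries of days 0 to 1 set against the 4 of days 3 to 6. 8 of the 10 genes rose and none fell by edgeR's quasi-likelihood test at an adjusted p under 0.05, where 24.1% of the 12131 genes tested rose and 24.6% fell. The median log2 fold change was 0.89 for the members and 0.01 for all genes tested. Fosl2 rose most, from 0.366 ± 0.0678 (SD, n = 4) to 0.952 ± 0.249 (SD, n = 4), with a fitted log2 fold change of 1.41 ± 0.20 (SE) and an edgeR adjusted p of 0.000179. Dusp1 rose from 0.335 ± 0.146 (SD, n = 4) to 0.804 ± 0.103 (SD, n = 4), a fitted change of 1.32 ± 0.22 (SE, edgeR adjusted p = 0.000575). The rise of Fosb was of the same size, with 1.58 ± 0.698 (SD, n = 4) and 3.69 ± 0.511 (SD, n = 4) and a fitted change of 1.29 ± 0.23 (SE, edgeR adjusted p = 0.000691). Fosl1, Jund and Junb rose by 1.08, 0.97 and 0.76 on the log2 scale, with edgeR adjusted p-values of 0.0139, 0.00330 and 0.00213. Egr1 and Jun passed more narrowly, at 0.82 and 0.64 with edgeR adjusted p-values of 0.0280 and 0.0386.

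Fos and Ier2 did not pass. Fos had 7.44 ± 3.58 (SD, n = 4) and 11 ± 2.83 (SD, n = 4), a fitted change of 0.65 ± 0.28 (SE) and an edgeR adjusted p of 0.0759, and Ier2 a change of 0.04 ± 0.24 (SE) and an edgeR adjusted p of 0.894. Fosb, Fosl1, Fosl2, Junb, Jund and Dusp1 passed in all 8 fits that left out a library or a day, whereas Jun and Egr1 passed in 2 of the 8. Replicate number was uneven between the groups, with 3 of 4 early libraries numbered 1 and 3 of 4 late libraries numbered 2, and with this number as a block 6 genes passed, Egr1 (edgeR adjusted p = 0.0665) and Jun (edgeR adjusted p = 0.0988) being lost. ENR+CV occurred at day 0 alone, so for the ENR+CV libraries medium and time cannot be told apart. The early libraries of days 0.25 and 1 were in ENR+CD, as all late ones were. Within ENR+CD every member but Ier2 was higher in each library of days 3 to 6 than at days 0.25 and 1. How many of all genes separated in this way was not recorded, so this describes levels and sets the members apart from no other genes. Replicate number differed here too, with days 0.25 and 1 numbered 1 and days 3 and 4 numbered 2. Fosl2 was at 0.386 and 0.430 against 0.730 to 1.23. Ier2 was at 2.66 at day 0.25 and 2.38 at day 3. A fit without day 0 called 2404 of 12676 genes as higher and 2683 as lower, and its values for the members are not reported here.

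Within stem III-like cells, a stem cell class present in all 9 untreated libraries, the same comparison called none of the 9 members tested, where 14.3% of 8872 genes were called in either direction by edgeR and 2592 had an unadjusted p under 0.05. DESeq2 also called none of the members there. Fos in these cells was at 6.13 and 13.3 UMIs per 10000 in ENR+CV, at 5.68 and 4.28 at days 0.25 and 1, at 4.33 and 4.18 at days 3 and 4 and at 8.04 and 9.0 at day 6. The late and early libraries overlapped, with day 4 just below the lowest early value, and the fitted change was -0.29 (edgeR adjusted p = 0.531). Dusp1 had a fitted change of -0.46 (edgeR adjusted p = 0.543) and Fosl2 one of 0.66 (edgeR adjusted p = 0.0983) in these cells, and the difference between whole organoids and stem III-like cells was not tested. Without the day 1 library Jun and Ier2 passed as lower at days 3 to 6, as they also did without the filter on low counts. Without that filter 1679 of 19402 genes were called. With replicate number as a block Ier2 passed as lower (edgeR adjusted p = 0.0456). The count of 0 thus depends on that library, the filter and the block. Day 3 and day 4 contributed 56 and 61 such cells.

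The other genes of the pathway were described by lists, which were chosen with earlier results of these data known. In whole untreated organoids 12 of 15 tested immediate early transcription regulators rose and none fell, with a median of 1.41, among them Maff (1.92), Btg2 (1.72), Atf3 (1.69) and Nr4a1 (1.66). Maff and Atf3 also belong to the other AP-1 family bZIP genes, of which 3 of 5 rose. Of 15 mRNA decay and feedback genes 6 rose, including Gadd45g (2.05) and Cyr61 (1.77), which encodes a secreted matrix protein, and 1 fell, Zfp36l2 (-1.32), which encodes a protein that promotes mRNA decay. Dual-specificity phosphatases and ERK feedback genes were divided, with 6 of 15 up, including Dusp10 (3.15), and 4 down, including Dusp9 (-1.79) and Spred1 (-0.90). The upstream kinases and promoter factors were divided as well, with 3 up and 3 down of 19, a smaller share each way than the 24.1% and 24.6% of all genes. Among ligands and AP-1 targets Mmp7, a matrix protease made by Paneth cells, rose by 4.70, Vegfa rose by 0.99 and Ccnd1, which encodes cyclin D1, fell by 2.31, with 3 up and 2 down of 12. Heat shock genes gave 5 lower and none higher of 10, led by Hspe1 and Hspd1, both at -1.62.

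The main treatment comparison asked whether KPT-330 moved these genes in whole organoids, in 7 ENR+CD and 8 KPT-330 libraries over 6 days with a term for day. Dusp1 had the largest change, with 0.683 against 0.331 UMIs per 10000 at day 0.25, 0.581 against 0.232 at day 1 and 0.884 against 0.749 at day 2, KPT-330 first. At day 3 the KPT-330 replicates had 0.768 and 1.70 against 0.654, at day 4 it was 1.54 against 0.882, and the day 6 replicates had 0.967 and 1.07 against 0.816 and 0.861. Every KPT-330 library lay above the ENR+CD libraries of its day, and the fitted change was 0.96 ± 0.16 (SE), 1.95-fold, with an edgeR adjusted p of 0.00106. The levels of Fosl2 were 0.845 against 0.386 at day 0.25, 0.538 against 0.430 at day 1, 1.11 against 0.880 at day 2, 0.741 and 1.29 against 0.730 at day 3, 1.81 against 1.1 at day 4 and 0.990 and 1.4 against 0.750 and 1.23 at day 6. Its mean was above ENR+CD on all 6 days, although the day 6 libraries overlapped, and it changed 1.71-fold (0.77 ± 0.13, SE, edgeR adjusted p = 0.00137).

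Junb and Fos rose less. Junb was at 2.35 against 1.31 at day 0.25, 1.92 against 1.46 at day 1, 2.69 against 2.49 at day 2, 2.16 and 4.11 against 2.03 at day 3, 4.24 against 2.70 at day 4 and 2.22 and 3.39 against 2.66 and 2.82 at day 6. Its change of 1.57-fold (0.65 ± 0.13, SE, edgeR adjusted p = 0.00379) was larger at day 0.25 and day 4 than at days 2 and 6. The mean of Junb was above ENR+CD on all 6 days. At day 2 it came close to ENR+CD, and the day 6 replicates lay below and above those of ENR+CD. Fos was at 10.1 against 5.87 at day 0.25, 7.07 against 5.25 at day 1, 7.16 against 8.01 at day 2, 8.27 and 11.5 against 7.01 at day 3, 15 against 11.3 at day 4 and 13.3 and 14.4 against 12.4 and 13.5 at day 6. It was above ENR+CD on 5 of 6 days, day 2 being the exception, and changed 1.5-fold (0.59 ± 0.11, SE, edgeR adjusted p = 0.00300). Fosb rose 1.5-fold (0.58 ± 0.17, SE, edgeR adjusted p = 0.0233), with day ratios on the log2 scale from -0.08 to 0.91. Egr1 rose 1.31-fold (0.38 ± 0.13, SE, edgeR adjusted p = 0.0358) and Ier2 1.23-fold (0.29 ± 0.09, SE, edgeR adjusted p = 0.0274), and each had days on which the level was below ENR+CD.

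In all, 7 of the 10 genes rose with KPT-330 and none fell, where 14.4% of the 12812 genes tested rose and 14.2% fell, and the members' median log2 fold change was 0.52 against -0.0023 for all genes. Jun did not pass (0.19 ± 0.11, SE, edgeR adjusted p = 0.217), and its level was below that of ENR+CD on 4 of 6 days. Jund (0.45 ± 0.18, SE, edgeR adjusted p = 0.0684) and Fosl1 (0.25 ± 0.22, SE, edgeR adjusted p = 0.421) did not pass either. These changes are relative to most genes, because TMM factors set the median of all genes near 0. Scaled by total UMIs instead, an alternative added after the data were seen, the median of all genes was -0.27, 470 genes rose and 4900 fell in place of 1841 and 1820, so that 8.75% of the genes called were higher. Dusp1 (0.69), Fosl2 (0.50), Junb (0.39) and Fos (0.31) still passed on that scale, with edgeR adjusted p-values of 0.00513, 0.0157, 0.0471 and 0.0480, while Fosb, Egr1 and Ier2 did not and the signs of Jun (-0.08) and Fosl1 (-0.02) turned. The same 4 genes passed in all 11 fits that left out a library or a day, and they alone passed without day 0.25 or without day 4.

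Depth and mitochondrial share moved with the libraries, from 2676 to 7146.5 UMIs per cell and 6.31% to 16.5% with KPT-330 and from 2701 to 8463 and 7.37% to 14.4% in ENR+CD, and their part in the result was not tested. The share of each cell type moved too. When the ENR+CD levels of each cell type were weighted by the KPT-330 shares of UMIs, the median over 6 days of the part that came from the shares was 0.25 for Dusp1, 0.15 for Junb, 0.14 for Fos and 0.12 for Fosl2 on the log2 scale. The part within cell types had medians of 0.19, 0.24, 0.20 and 0.31. These medians were taken separately and need not add up to the median change, which was 0.82 for Dusp1. The part of Dusp1 within cell types was 0.96 and 1.16 at days 0.25 and 1. It was 0.02, 0.15, 0.24 and 0.02 at days 2, 3, 4 and 6. At day 0.25 nearly all of the change in these genes lay within cell types, with 0.96 for Dusp1, 1.03 for Fosl2, 0.79 for Junb and 0.79 for Fos, whereas at day 3 the shares carried 0.69 of the 0.83 for Dusp1 and 0.34 of the 0.56 for Junb. Jun had a median of 0.04 from the shares and -0.17 within cell types.

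**Figure D2:**
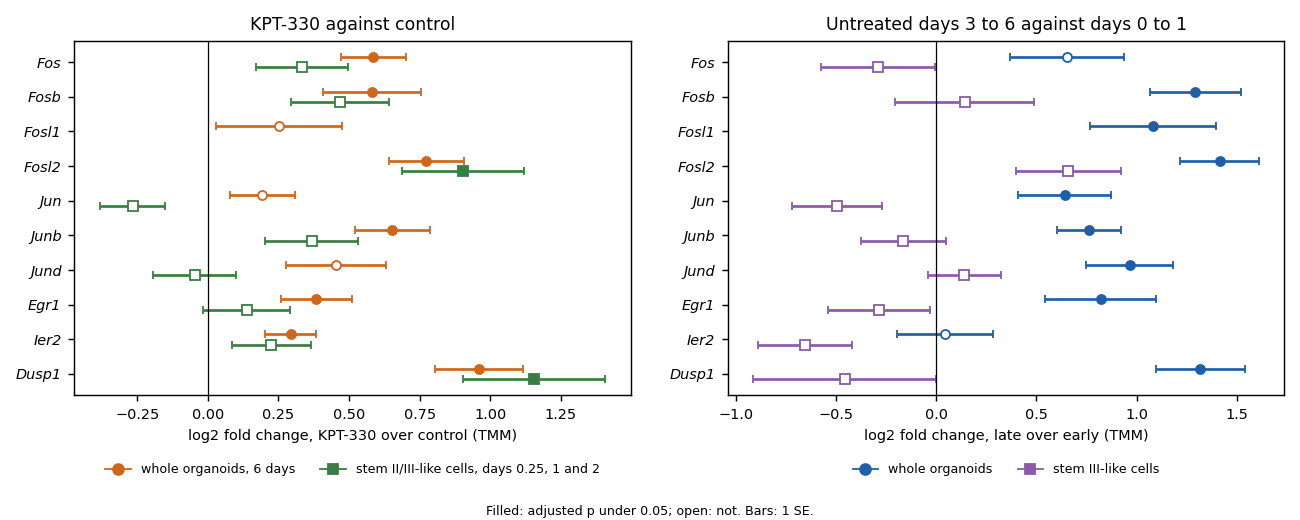
Fitted log2 fold change with KPT-330 (horizontal axis) of the 10 genes in whole organoids and in stem II/III-like cells of days 0.25 to 2 (left), and of untreated days 3 to 6 over days 0 to 1 in whole organoids and stem III-like cells (right), with bars of 1 standard error each side and filled symbols for edgeR adjusted p under 0.05. With KPT-330 in whole organoids Dusp1 at 0.96 and Fosl2 at 0.77 lie farthest from 0 and Jun at 0.19 nearest, and in the stem II/III-like cells Dusp1 and Fosl2 alone are filled.

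The effect of KPT-330 at days 0.25 to 2 was then set against that at days 3 to 6 in the same 15 libraries. No member passed, and no gene of the 12812 did (0% in either direction) with edgeR, where 1333 had an unadjusted p under 0.05 and DESeq2 called 56. The members' differences, early minus late, ran from -0.50 for Jund to -0.05 for Dusp1, with edgeR adjusted p-values from 0.428 to 0.973. The interval of 2 standard errors around the difference for Dusp1 ran from -0.70 to 0.60, so differences of that size in either direction could not be told from none.

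Stem II/III-like cells of days 0.25, 1 and 2 were compared separately, since they are the cells in which differentiation starts, with 814, 246 and 123 cells in ENR+CD and 623, 222 and 70 with KPT-330. The level of Dusp1 in them was 0.674 with KPT-330 against 0.271 at day 0.25, 0.436 against 0.122 at day 1 and 0.217 against 0.309 at day 2, the last from 13 and 26 UMIs. Fosl2 was at 0.886 against 0.338, 0.313 against 0.243 and 0.435 against 0.440. Both were higher on the first 2 of the 3 days and not on the third. The libraries of days 0.25 and 1 were numbered replicate 1 and those of day 2 replicate 2, in both conditions. Day and replicate number therefore cannot be told apart here. In the fit over the 3 days Dusp1 rose 2.23-fold (1.16 ± 0.25, SE, edgeR adjusted p = 0.0120) and Fosl2 1.87-fold (0.90 ± 0.22, SE, edgeR adjusted p = 0.0237). These 2 of 9 members tested rose and none fell, where 1.05% of 9681 genes rose and 0.744% fell, and Fosl1 had too few UMIs to be tested.

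The other members did not pass in these cells. Fos was at 10.2 against 5.62 at day 0.25, 6.08 against 4.40 at day 1 and 4.38 against 6.56 at day 2 (fitted change 0.33, edgeR adjusted p = 0.367), and Jun at 6.93 against 7.74, 4.04 against 4.85 and 4.6 against 6.65 (-0.27, edgeR adjusted p = 0.294). Jun was thus below ENR+CD on each of the 3 days. At day 0.25 the levels of Fosb, Junb and Egr1 were 2.57 against 1.25, 2.14 against 1.18 and 5.91 against 3.58, and at day 2 they were 1.32 against 1.49, 1.1 against 1.39 and 2.99 against 4.39. The result rests on single libraries. No member passed without the day 0.25 libraries or without those of day 1, and 5 passed without those of day 2 (Fos, Fosb, Fosl2, Junb and Dusp1). How many of all genes passed in these fits was not recorded. DESeq2 called none of the members and 18 genes in all.

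Across lists, the genes that rose with KPT-330 in whole organoids included 3 of 6 tested AP-1 family bZIP partners, Atf3 (1.09, edgeR adjusted p = 0.000445), Maff (1.08) and Mafk (0.82), and none fell. ATF3 is a stress-induced repressor and activator that pairs with JUN proteins. Of the 16 tested immediate early regulators 8 rose, Atf3 and Maff among them, and Klf4 by 0.77, with a list median of 0.52. Of decay and feedback genes 5 of 15 rose, including Sgk1 (0.79) and Zfp36 (0.71), and Gadd45a fell by 0.63. ERK feedback genes gave 6 higher and 1 lower of 16, with Dusp10 at 1.02, Dusp4 at 0.69, Dusp6 at 0.59 and Spred3 at -0.82. Of 19 kinases and promoter factors that act above them, 3 rose (Srf 0.40, Map2k2 0.28, Mapk3 0.25) and 3 fell (Rps6ka2 -0.78, Mkl2 -0.38, Creb1 -0.25), with a median of 0.04 and shares near the 14.4% and 14.2% of all genes. Among ligands and AP-1 targets 5 of 12 rose, including the EGF receptor ligand Areg (0.89), Sphk1 (1.01) and Mmp7 (0.95), and Cd44 (-0.71) and Ccnd1 (-0.54) fell. Heat shock genes gave 3 higher, Hspa1a (1.37), Hspa1b (0.90) and Bag3 (0.42), and 1 lower, Hspe1 (-0.25), of 10.

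In the early stem cells Atf3 (0.94, edgeR adjusted p = 0.00171), Maff (1.17), Nr4a1 (0.94), Cyr61 (0.86) and Dusp4 (0.88) rose, as did Mmp7 (1.51) and Areg (1.30), while Ccnd1 fell by 1.14. None of 17 kinases and promoter factors and none of 8 heat shock genes passed there by edgeR. Markers of cell types outside the named classes were near 0, tuft cells, an epithelial type that organoids can form, among them. The summed level of 8 mesenchymal markers was 0.00896 to 0.0794 UMIs per 10000, that of 7 immune markers without Lyz2 0.00500 to 0.0245, that of 8 tuft cell markers 0.0238 to 0.0798 and that of 4 endothelial markers 0 to 0.0265 over these libraries. Tyrobp was at 0 in every group, and Pdgfrb (-1.16) and Pecam1 (-1.62) fell with KPT-330. Lyz2, which the immune list also holds and which Paneth cells are known to express, rose by 1.23.

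Cell types were defined by clustering without the 10 genes, and clusters were named from 10 markers per type that the study derived from these samples. Of the 17 clusters all but 1, with 169 cells, were named as 1 of 10 types, from 508 early secretory-like to 4313 Paneth-like cells. The stem II-like cluster had none of its own markers, and none of another type, among its 10 leading genes. Median depth differed from 3398 UMIs per cell in stem II-like to 8370 in enterocyte-like cells, and no cell type known to lack Fos was available to set a background. Each value below is a mean over untreated libraries with at least 20 cells of the type, described without a test, and the libraries that contribute differ between types.

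Paneth-like cells had the highest untreated mean of Fos, Fosb, Fosl2, Jun, Jund, Egr1 and Ier2, and enterocyte-like cells that of Fosl1, Junb and Dusp1. For Fosl1 and Junb the order within libraries was another. The Paneth-like means came from the 5 untreated libraries of days 2 to 6 alone. Of the genes with their highest mean there, only Fos and Egr1 were highest in Paneth-like cells in each of these 5. Fos was at 15.3 ± 3.11 (SD, n = 5) in Paneth-like, 12.9 ± 3.84 (SD, n = 5) in early Paneth-like and 11.9 ± 3.75 (SD, n = 5) in goblet-like cells, then at 8.33 in early enterocyte-like, 8.24 in enterocyte-like, 7.31, 7.22 and 6.80 in stem I-, II- and III-like, 6.22 in early secretory-like and 5.88 ± 2.58 (SD, n = 8) in enteroendocrine-like cells. No neighbours in that order differed beyond their SD, although the ends differed 2.61-fold. Fosb had a wider range, from 5.43 ± 0.902 (SD, n = 5) in Paneth-like to 0.812 ± 0.183 (SD, n = 4) in early secretory-like cells, 6.69-fold, and Paneth-like cells lay above the 4.07 of early Paneth-like cells by more than the SD. Fosl2 ran from 1.22 ± 0.30 (SD, n = 5) in Paneth-like to 0.262 in early secretory-like cells, with enterocyte-like (1.05) and stem I-like (1.02) cells next to the top. Fosl1 was at 0.318 ± 0.0828 (SD, n = 5) in enterocyte-like and 0.243 ± 0.219 (SD, n = 7) in early enterocyte-like cells and below 0.1 in Paneth-like cells (0.0754), with a single UMI in early secretory-like cells. In the 3 libraries with both enterocyte types Fosl1 was higher in early enterocyte-like cells in each, and this type had its highest level in 7 of the 9 untreated libraries.

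Among the JUN genes, Jun was at 13.4 ± 1.87 (SD, n = 5) in Paneth-like, 11.8 ± 3.29 (SD, n = 6) in stem I-like, 11.3 in early Paneth-like and 11 in enterocyte-like cells and lowest in early secretory-like cells at 4.77 ± 0.939 (SD, n = 4). Junb was instead at 4.25 ± 0.698 (SD, n = 5) in enterocyte-like and 2.88 in early enterocyte-like cells, a step beyond the SD, and at 1.24 in stem III-like and 1.16 in early secretory-like cells. That step rests on libraries that differ between the types, since enterocyte-like cells were higher in only 1 of the 3 libraries with both. Egr1 was at 10.4 ± 1.94 (SD, n = 5) in Paneth-like, 7.55 in early Paneth-like and 3.43 ± 1.04 (SD, n = 5) in enterocyte-like cells, where it was lowest. Dusp1 had the widest range among the genes drawn by cell type, from 1.97 ± 0.453 (SD, n = 5) in enterocyte-like over 1.01 ± 0.149 (SD, n = 5) in Paneth-like to 0.209 ± 0.105 (SD, n = 4) in early secretory-like cells, 9.43-fold. Jund ran from 4.20 ± 0.857 (SD, n = 5) in Paneth-like to 1.60 in stem II-like cells, and Ier2 from 3.8 ± 0.380 (SD, n = 5) in Paneth-like to 1.42 ± 0.173 (SD, n = 5) in enterocyte-like cells. Within single untreated libraries the order was less uniform. Fos and Egr1 were highest in Paneth-like cells in all 5 libraries with enough of them, Junb in early enterocyte-like cells in 6 of 9 libraries and in enterocyte-like cells in 3, and Dusp1 in these types in 4 and 5. Fosb was highest in Paneth-like cells in 3 libraries and in early enterocyte-like cells in 4. Fosl2 was highest in Paneth-like cells in 2 libraries and in early enterocyte-like cells in 4. Jun was highest in Paneth-like, stem I-like and stem III-like cells in 3 libraries each. With KPT-330 the highest mean of Fos was that of goblet-like cells at 17.4 ± 6.49 (SD, n = 4) and the lowest that of enterocyte-like cells at 5.54, that of Junb was highest in early enterocyte-like cells (3.78) and that of Dusp1 in Paneth-like cells (1.46).

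**Figure D3:**
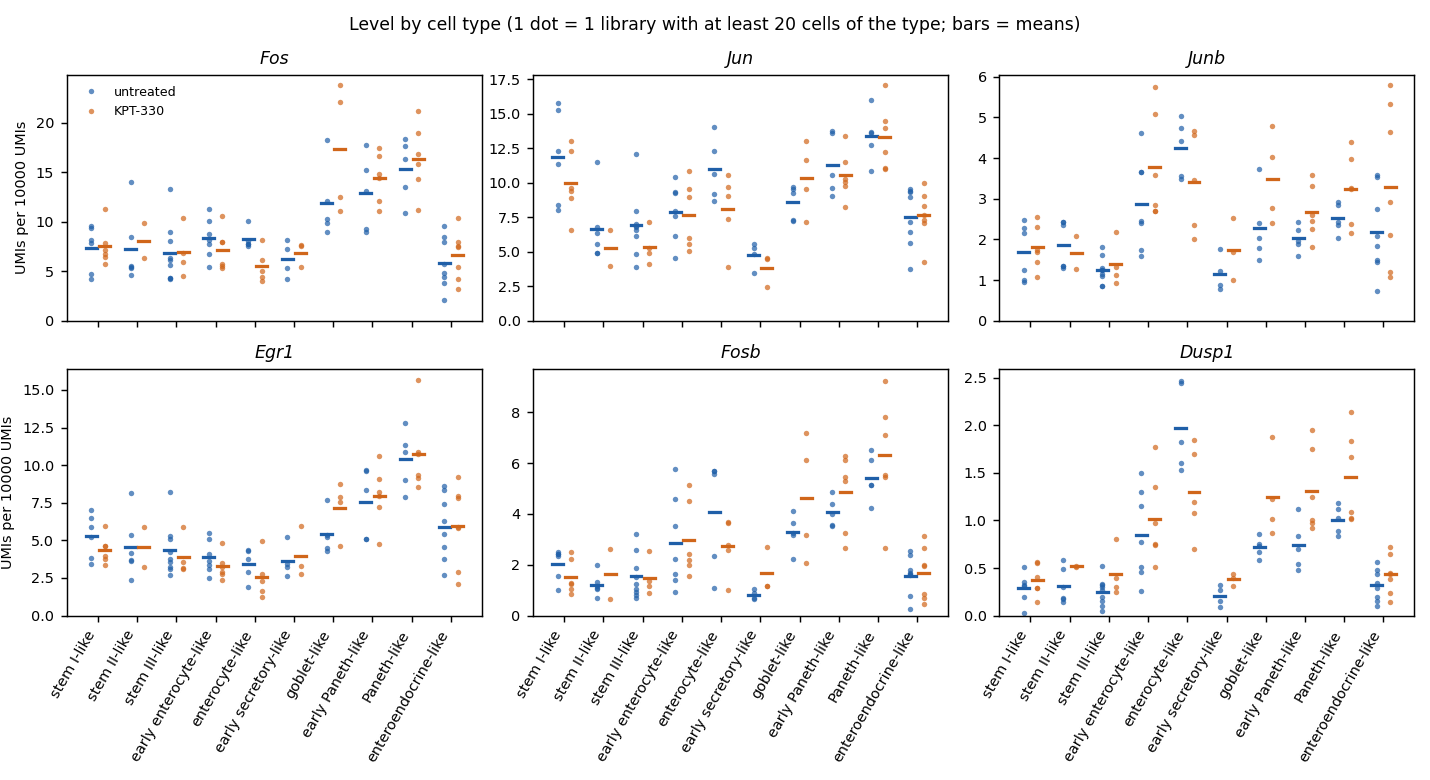
Levels of Fos, Jun, Junb, Egr1, Fosb and Dusp1 (vertical axes, UMIs per 10000 UMIs) in each marker-defined cell type (horizontal axis), with 1 point per library of at least 20 cells of the type and bars for the mean, untreated beside KPT-330. Paneth-like cells stand highest untreated for Fos at 15.3, Fosb at 5.43, Jun at 13.4 and Egr1 at 10.4, and enterocyte-like cells for Junb at 4.25 and Dusp1 at 1.97, all as means.

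The effect of KPT-330 was tested in 9 cell types that had both conditions on at least 3 days, and 6 of the values for members passed. In early Paneth-like cells, where 1.66% of 8333 genes rose, Fosl2, Dusp1 and Junb rose and none fell. Fosl2 was at 0.613, 0.582, 1.03, 0.710 and 0.742 in the 5 ENR+CD libraries and at 0.964, 0.818, 1.02, 1.70, 0.994 and 1.23 in the 6 KPT-330 libraries, in order of day. The ENR+CD library of day 4 alone reached the KPT-330 range, and the change was 1.74-fold (0.80 ± 0.14, SE, edgeR adjusted p = 0.000651). Dusp1 was at 0.482, 0.696, 1.12, 0.841 and 0.547 against 1.01, 0.978, 1.96, 1.75, 0.918 and 1.25, and rose 1.92-fold (0.94 ± 0.17, SE, edgeR adjusted p = 0.00121). Junb rose 1.48-fold (0.57 ± 0.15, SE, edgeR adjusted p = 0.0265), from 1.60 to 2.43 in ENR+CD and 1.82 to 3.57 with KPT-330. Fosl2 and Dusp1 passed in all 9 fits that left out a library or a day, and Junb in 5 of them.

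Enteroendocrine-like cells called Fosl2 alone, where 0.986% of 9225 genes rose. On the days with both conditions its level was 0.186, 0.396, 0.213, 0.376, 0.339 and 0.504 in the ENR+CD libraries and 0.340, 0.656, 0.511, 0.511, 0.707, 0.667 and 0.596 with KPT-330, in order of day. The groups overlapped across days but not within a day. It rose 1.87-fold (0.90 ± 0.17, SE, edgeR adjusted p = 0.00419) in these 13 libraries and passed in all 10 fits with a library or day left out. Early secretory-like cells called Fosb, where 0.648% of 6479 genes rose, with 2.69, 1.18 and 1.17 against 1.03, 0.670 and 0.898 at days 0.25, 1 and 2 (1.81-fold, 0.85 ± 0.22, SE, edgeR adjusted p = 0.0460). Each KPT-330 library lay above all of the ENR+CD ones there. With no more than the 3 days needed, no fit that left out a library or day, or used the replicate block, could be made in this type. Enterocyte-like cells called Fosl1 as lower, the 1 member that fell in any comparison, where 1.08% of 8257 genes fell. Fosl1 was at 0.370, 0.367, 0.315, 0.175 and 0.360 in the ENR+CD libraries, from 9 to 71 UMIs each, and at 0.149, 0.0977, 0.124, 0.102 and 0.158 with KPT-330, from 8 to 42 UMIs each. The groups did not overlap, and the fold was 0.423 (-1.24 ± 0.27, SE, edgeR adjusted p = 0.0282), although 4 of the 8 fits with a library or day left out lost it. Of the 162 cells of 1 enterocyte-like cluster 160 were from KPT-330 libraries. Its marker score was 1.465 for enterocyte and 1.43 for Paneth cells, so its name is uncertain. The part of this cluster in the result was not tested.

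Several values near the threshold did not pass. Dusp1 in stem III-like cells had a fitted change of 1.33 ± 0.30 (SE, edgeR adjusted p = 0.0572), Fos in goblet-like cells one of 0.93 ± 0.25 (SE, edgeR adjusted p = 0.0509), Junb in Paneth-like cells one of 0.51 ± 0.14 (SE, edgeR adjusted p = 0.0625) and Fosl2 in stem I-like cells one of 0.52 ± 0.16 (SE, edgeR adjusted p = 0.0571). No member passed by edgeR in Paneth-like cells, where 3.26% of genes did in either direction, in early enterocyte-like (1.26%), goblet-like (1.65%), stem I-like (4.29%) or stem III-like cells (0.475%). The unadjusted counts there were 1612, 1337, 727, 1484 and 891 genes at a p under 0.05. The count over the 9 types moved from 4 without day 4 to 19 without KPT-330 day 3 replicate 1. The number of all genes called in those fits was not recorded. On the TMM scale 138 genes rose and 79 fell in early Paneth-like cells, and 77 and 191 by total UMIs, and in enterocyte-like cells the split was 64 and 89 against 46 and 101. Clusters took different shares of a class by condition, with 65.7% of untreated and 43.6% of KPT-330 Paneth-like cells in the same cluster and 58.7% and 36.8% of enteroendocrine-like cells in another. Whether the effect differed between cell types was not tested, and these tests share ENR+CD libraries with those of whole organoids.

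**Figure D4:**
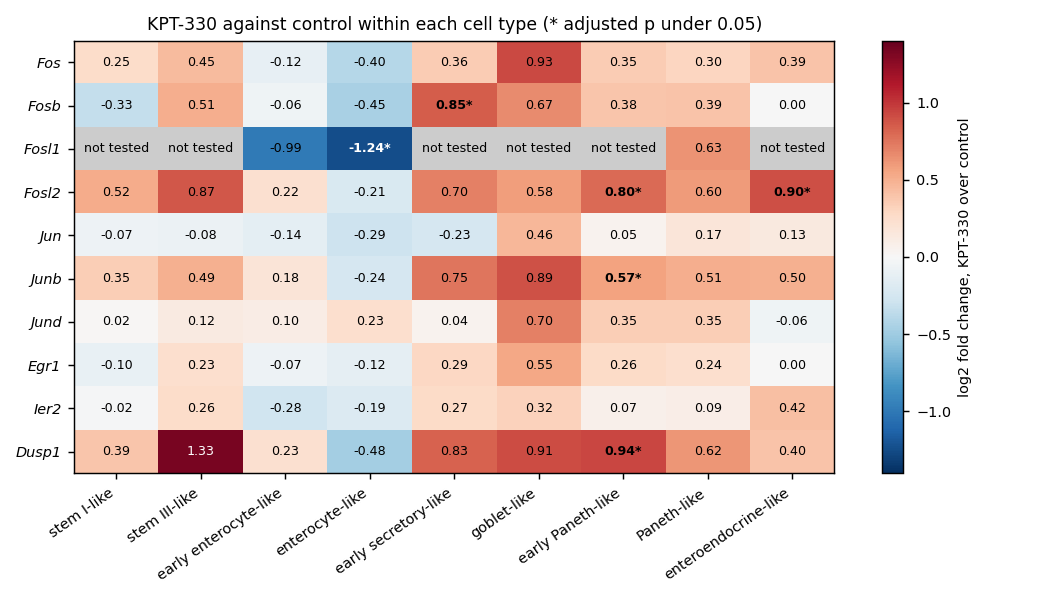
Heat map of the fitted log2 fold change with KPT-330 for each of the 10 genes (rows) within each of the 9 cell types (columns), with the value printed in each cell and marked where the edgeR adjusted p was under 0.05. The 6 marked values are Fosl2, Junb and Dusp1 in early Paneth-like, Fosl2 in enteroendocrine-like, Fosb in early secretory-like and Fosl1 in enterocyte-like cells, the last at -1.24.

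Among single cells, the other 9 genes were compared between cells with and without a Fos UMI, after each cell was thinned to 2000 UMIs so that depth was equal. This kept 18817 cells, 12520 of them with a Fos UMI or from 50.6% to 80.7% per library, and left out 374 untreated and 686 KPT-330 cells as shallower. The level of Fosb in cells with a Fos UMI was 2.79 times that in cells without (median of 17 libraries, range 1.51 to 5.13), that of Dusp1 2.40 times (1.51 to 3.54) and that of Egr1 1.97 times (1.31 to 3.46). Each of these ratios was above 1 in all 17 libraries. Junb (1.70), Ier2 (1.64), Jun (1.54) and Fosl2 (1.34) were also above 1 in all 17, Jund (1.54) in 16, and Fosl1 (1.48) in 12 of the 15 libraries where it could be computed. For comparison, among genes with a level of at least 0.5 the median gene had a ratio of 0.966 and the gene at the 95th percentile one of 1.45, each as the median over libraries. The cells of a library share its preparation, so these ratios are descriptions without a test.

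Because the pooled cells mix types with different levels, the ratio was also taken within types. Within Paneth-like cells the ratio was 3.14 for Fosb, 2.25 for Junb, 2.1 for Egr1, 1.79 for Jun and 1.78 for Dusp1 over 10 libraries, where the 95th percentile of genes was 1.95. Within stem III-like cells it was 3.21 for Fosb, 1.85 for Junb, 1.70 for Egr1 and 1.59 for Jun over 12 libraries, with a 95th percentile of 2.35. Enterocyte-like cells gave 1.65 for Egr1, 1.36 for Fosb, 1.31 for Dusp1 and 1.23 for Jun over 8 libraries, all below the 95th percentile of 2.14. Fosb was thus above the 95th percentile of genes within Paneth- and stem III-like cells and not within enterocyte-like cells, and this difference was not tested.

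**Figure D5:**
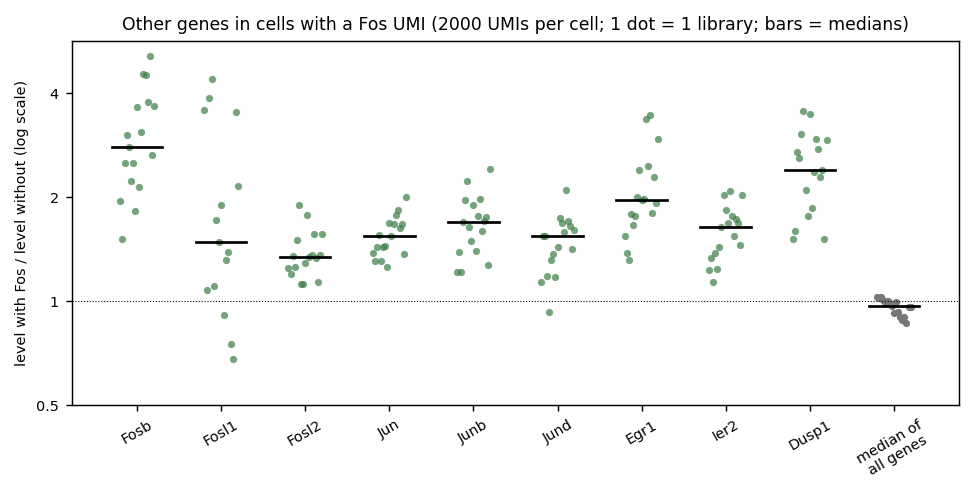
Ratio of the level in cells with a Fos UMI to that in cells without, after thinning to 2000 UMIs (vertical axis, log scale), for 9 genes (horizontal axis), with 1 point per library and a bar at the median, beside the median of all genes. Fosb at 2.79 and Dusp1 at 2.40 lie highest, and the 17 points of each stay above 1.

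Over the 17 libraries Atf3 (0.91) and Lsr (0.91) were among the genes nearest to Fos by the Pearson correlation of log2 library counts scaled for depth, out of 3785 genes with a mean level of at least 0.5. Among those nearest to Junb were Atf3 (0.96) and Ppp1r15a (0.95), which encodes the GADD34 subunit of a stress-response phosphatase. Nearest to Jun were Gnas (0.92), Pla2g12a (0.91) and Lsr (0.91), and to Egr1 the zinc transporter Slc39a4 (0.91), Clic4 (0.91) and Clu (0.88). Among the members that met this level, Junb and Dusp1 had the closest patterns (0.97), Fos and Egr1 had 0.95 and Fosl2 and Junb 0.94. Ier2 had 0.79 to Egr1, 0.77 to Fos and 0.67 to Jun, and its lowest values were 0.35 to Jund and 0.38 to Fosl2. The libraries share days, media and cell-type shares, and these correlations are given as descriptions.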

How the data were processed

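The authors demultiplexed reads with bcl2fastq, aligned them to mm10 with STAR, used the Drop-seq pipeline to merge reads of the same molecule, and deposited the resulting raw counts, a table of gene symbols by cell barcodes for each library. The gene annotation they used is not given in the sources used here, and whether overlapping genes were separated is not given either. The cells kept are those of their merged table, after their filters on genes, mitochondrial share, UMIs and doublets. Columns of other samples not used numbered 0.

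Cells were clustered with Seurat 5.3.0 and sctransform 0.4.2 in R 4.3.3 on 3000 variable genes less 60 that belong to the lists, the 10 members included (9 components, 20 neighbours, resolution 0.45, and 14 components with resolution 0.3 for clusters divided again). Counts were summed per library, or per library and cell type with at least 20 cells, and tested with edgeR 4.0.16 (TMM factors, filterByExpr, terms for day and KPT-330, quasi-likelihood test), with Benjamini-Hochberg adjustment over all genes tested and a threshold of 0.05. Comparisons within cell types needed at least 3 days with both conditions, and those with KPT-330 share ENR+CD libraries. Alternatives included DESeq2 1.42.0, other clusterings and leaving out each library or day. The steps were tested on simulated data.

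The members and lists were chosen with earlier results of these data known. Named besides the members are, per list and direction, up to 3 called genes with the smallest p, and the 3 genes most like Fos, Jun, Junb and Egr1. Not every gene this rule selects is reported here. Other values belong to no test and are descriptions, computed in Python 3.11.15. Depth limits Fosl1 most, and ratios and levels of single libraries carry counting error that was not separated from library differences.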

Additional observations from a re-analysis of the deposited data

Results flagged for a closer look

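ENR+CV replicate 2 at day 0 stood apart from the other 3 untreated libraries of days 0 to 1, with 12.8 UMIs per 10000 for Fos where the nearest was 5.87, a gap of 0.918 of the group's range, and 7.62 for Egr1 where the nearest was 3.63, a gap of 0.926. ENR+CD at day 3 stood below the other 3 untreated libraries of days 3 to 6, with 8.16 for Jun where the nearest was 12.1, a gap of 0.856, and 4.63 for Egr1 where the nearest was 8.15, a gap of 0.846. The limit used for such gaps is one that chance passes in about 1 of 20 groups. It was applied to each of the 10 genes in both periods. Levels of these genes are correlated over the libraries, at 0.95 for Fos and Egr1 and 0.89 for Jun and Egr1. Gaps in the same library are therefore not separate findings. Fosl1 in the 6352 barcodes that the study did not keep had 0.0926 UMIs per 10000, against 0.0896 in the kept cells, and the other 9 genes had lower levels there than in the kept cells.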

How the results depend on the processing

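Counts of members called moved by more than 1.5 times as follows. For KPT-330 in whole organoids, total UMIs in place of TMM gave 4 where the result was 7, and leaving out a library or day gave 4 to 8. Over all genes total UMIs called 5370 of 12812 in place of 3661. For early stem II/III-like cells, where the result was 2, DESeq2 gave 0, cells with at least 1000 genes 1, the highest marker score per cell 0, and leaving out a day 0 to 5. Over all genes these called 18 of 9681 with DESeq2, 107 of 9597 with at least 1000 genes and 94 of 10131 with the marker score. The main fit called 174 of 9681. For stem III-like cells at days 0 to 1 against days 3 to 6, where the result was 0, no filter on low counts gave 2 and leaving out a library or day 0 to 2. Over all genes no filter called 1679 of 19402 there in place of 1271 of 8872. How many of all genes were called with a library or day left out was not recorded. Within cell types, where the result was 6, no filter on low counts gave 18, the highest marker score per cell 10, and leaving out a library or day 4 to 19. Over all genes, no filter called more in every type but early secretory-like, with 637 of 17555 in Paneth-like cells in place of 318 of 9744. The marker score called 152 of 9639 there, and 287 of 9485 in early Paneth-like cells in place of 217 of 8333. The mean level of Fos in ENR+CD at day 6, 12.9, was 14.3 with mitochondrial genes left out of the total. The ratio for Fosb in cells with a Fos UMI, 2.79, was 1.36 in enterocyte-like cells alone.

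The replicate number as a block gave 17 members called within cell types and 1 in stem III-like cells, Ier2, and turned the signs of Ier2 in untreated organoids (-0.0980) and Fosb in stem III-like cells (-0.0185). It also gave 6 members where 8 were called in untreated organoids, without Jun and Egr1. Over all genes the block called more within each of the 8 cell types fitted, with 788 of 9744 in Paneth-like cells in place of 318. It called 995 of 9560 genes in untreated stem III-like cells and 5374 of 12808 in untreated organoids. The day 6 deviations of same-numbered libraries had a correlation of 0.687 over genes, but day 6 alone has both numbers in both conditions, so the numbers were not taken as pairs. The block could not be fitted for the early stem cells.

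Signs turned with total UMIs for KPT-330 in whole organoids (Fosl1 -0.0189, Jun -0.0761), for Ier2 in untreated organoids (-0.0211), and for the difference between early and late effects (Fos 0.0613, Fosb 0.0113, Fosl1 0.118, Fosl2 0.15, Junb 0.0894, Ier2 0.0830, Dusp1 0.233). For that difference the median of all genes was 0.24 by total UMIs and -0.033 with TMM. The sign of Jund in early stem cells turned with log-normalized clustering (0.0339) and the marker score (0.0684). In stem III-like cells without day 0 the signs of Fos (0.206), Junb (0.136) and Egr1 (0.141) turned. Leaving out a library or day gave ranges that crossed 0 in early stem cells for Fosb (-0.0633 to 0.698), Junb (-0.0689 to 0.597), Jund (-0.346 to 0.122) and Egr1 (-0.247 to 0.417), and in untreated organoids for Ier2 (-0.167 to 0.215). In stem III-like cells they did so for Fos (-0.476 to 0.0978), Fosb (-0.246 to 0.554), Junb (-0.398 to 0.00660), Jund (-0.0623 to 0.287) and Egr1 (-0.443 to 0.0759), and between early and late effects for Fosl1 (-0.805 to 0.539), Fosl2 (-0.338 to 0.0129) and Dusp1 (-0.236 to 0.257). None of the members with a turned sign was called under that setting, and the cause was not tested. The other 91 of 109 alternatives for counts and leading values stayed on the same side of their limits.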

Other observations

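Within cell types, the AP-1 partner Atf3 rose with KPT-330 in early Paneth-like (1.00), early secretory-like (1.90), goblet-like (1.66), stem I-like (0.60) and stem III-like cells (1.06), each a log2 fold change with an edgeR adjusted p from 8.65e-09 to 0.0127. Klf6, a zinc finger immediate early gene, rose by 0.71 in early Paneth-like cells, by 1.41 in goblet-like cells and by 1.32 in early secretory-like cells. The phosphatase gene Dusp4 rose in Paneth-like (0.79), early Paneth-like (0.92), enteroendocrine-like (0.68) and stem I-like cells (1.07), and Dusp6 in enteroendocrine-like (0.61) and stem I-like cells (0.68). In enterocyte-like cells, where Fosl1 fell, Csrnp1 (-1.24) and Dusp5 (-0.99) fell and Mmp7 (2.82) rose. These cells include the cluster of 162 cells whose enterocyte and Paneth scores were close. Whether these effects differ between cell types was not tested.

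In untreated stem III-like cells, where no member was called, Nr4a1 (1.47), Cyr61 (2.00) and Mmp7 (2.65) were higher at days 3 to 6 by edgeR, and Ccnd1 (-1.27), Zfp36 (-0.78), Zfp36l2 (-0.70), Bag3 (-0.93), Hspd1 (-0.73) and Hspe1 (-0.70) were lower. In whole untreated organoids Lyz2, the 1 marker of the immune list that could be tested, rose by 3.10.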
